A study of Homo sapiens with 2 samples.

Results

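Keratin genes, the genes for the intermediate filament proteins of epithelial cells, were examined for chromatin accessibility in CAL27 cells, a human line grown from a tongue squamous carcinoma. Members were the protein-coding genes whose symbol is KRT followed by a number and an optional letter, which gave 55 of 19974 protein-coding genes in the RefSeq table of GRCh38.p14, the assembly also called hg38. Of these, 27 lie on chromosome 12, where the type II keratins cluster together with the type I gene KRT18, and 28 lie in the type I cluster region on chromosome 17. The series holds 1 library of cells treated with 10 mM lactate for 24 h and 1 library of untreated cells of the same line. The assay was ATAC-seq, where Tn5 transposase inserts sequencing adapters into accessible DNA, and the study asked how added lactate changes the chromatin. The lactate library had 15401276 tags and the untreated library 18248413. With 1 library per group there is no replicate check and no test, so every value compares these libraries. The 95% intervals given are exact and cover counting error only, and those on shares treat regions as independent. A region was an accessible interval listed by the authors' peak caller in either library, with overlapping intervals of both lists merged. It was taken when it lay in a keratin gene or within 10 kb of either end. This gave 101 of 130506 regions, 99 of them in the lactate list and 77 in the untreated list.

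Keratins work as pairs: a type I and a type II chain form a dimer that assembles into a filament, and the filaments tie the cytoplasm to desmosomes and hemidesmosomes. The pair that a cell makes marks its state. KRT5 and KRT14 are made in basal cells of stratified epithelia, where KRT15 is also found, KRT6 isoforms with KRT16 and KRT17 in wounded, hyperproliferative or activated epithelium, KRT1 with KRT10 in skin and KRT4 with KRT13 in internal mucosa above the basal layer. KRT8, KRT18, KRT19, KRT7 and KRT20 are the keratins of simple epithelia, and squamous carcinomas often make several of these classes at once. Hair keratins build the hair shaft and the sheaths around it. By these classes the members were 3 basal, 5 stress, 11 suprabasal, 5 simple, 26 hair and 5 other keratins, the last being KRT23, KRT24, KRT79, KRT80 and KRT222. Each region was counted with the class of its nearest keratin.

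The promoter sequences of 5 keratins are shown to set the 2 genes whose promoter window held a listed region, KRT5 and KRT8, beside 3 whose window held none, of the suprabasal, simple and hair classes. Each is the 250 bases before the RefSeq start on the minus strand of GRCh38.p14, written 5′ to 3′, at chr12:52520395-52520644 for KRT5, chr12:52926470-52926719 for KRT8, chr17:40822615-40822864 for KRT10, chr17:40885243-40885492 for KRT20 and chr17:41397609-41397858 for KRT31. Capitals mark TATAAA, the core of the TATA box, or where that is absent ATAAA, starting 20 to 40 bases before the start. KRT8 held neither there. The KRT8 window lies inside the annotated gene, whose upper-coordinate end is at 52949860, so KRT8 may have other starts than this one.
KRT5: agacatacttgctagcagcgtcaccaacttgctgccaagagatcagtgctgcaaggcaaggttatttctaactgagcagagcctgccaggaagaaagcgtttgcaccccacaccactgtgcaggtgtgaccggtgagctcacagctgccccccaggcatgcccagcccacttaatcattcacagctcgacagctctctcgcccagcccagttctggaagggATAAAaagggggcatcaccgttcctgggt
KRT8: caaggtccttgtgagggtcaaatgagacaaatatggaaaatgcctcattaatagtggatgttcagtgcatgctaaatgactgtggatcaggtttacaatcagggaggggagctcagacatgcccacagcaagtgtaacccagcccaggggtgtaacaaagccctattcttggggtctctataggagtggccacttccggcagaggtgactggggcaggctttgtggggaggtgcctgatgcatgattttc
KRT10: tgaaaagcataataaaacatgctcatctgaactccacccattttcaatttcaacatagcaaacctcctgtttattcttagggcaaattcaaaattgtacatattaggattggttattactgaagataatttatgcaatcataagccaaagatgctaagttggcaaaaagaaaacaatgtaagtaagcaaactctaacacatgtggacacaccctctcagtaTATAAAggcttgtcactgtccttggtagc
KRT20: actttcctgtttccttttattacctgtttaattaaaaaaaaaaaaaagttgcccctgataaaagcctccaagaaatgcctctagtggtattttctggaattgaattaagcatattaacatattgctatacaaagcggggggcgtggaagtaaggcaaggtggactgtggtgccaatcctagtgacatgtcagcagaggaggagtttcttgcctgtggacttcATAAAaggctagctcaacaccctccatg
KRT31: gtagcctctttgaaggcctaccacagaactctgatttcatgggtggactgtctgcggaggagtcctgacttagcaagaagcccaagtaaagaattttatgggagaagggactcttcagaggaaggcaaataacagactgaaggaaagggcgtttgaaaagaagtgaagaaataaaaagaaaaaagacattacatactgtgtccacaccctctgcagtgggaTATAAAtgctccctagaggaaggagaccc

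TATA boxes at the usual place were common in the keratin promoters that had a window, most of them of hair keratins. RefSeq promoter windows were matched for 34 of the 55 keratins. TATAAA started 20 to 40 bases before the start in 16 of the 34 (47.1%), against 4.20% of all 15813 protein-coding genes with a window. By class these were 12 of 22 hair, 3 of 7 suprabasal, 1 of 2 other, 0 of 1 basal and 0 of 2 simple keratins. The shorter ATAAA started at these bases in 25 of the 34 (73.5%), against 7.40%. The capitals in KRT5, KRT10 and KRT31 begin 29 bases before the start and those in KRT20 begin 28 bases before it. On both strands and anywhere in the 250 bases, GGGCGG, the GC box, was found in 4 keratins (11.8%) against 62.1% of all genes, and CCAAT in 16 (47.1%) against 40.2%. TGANTCA, a loose form of the AP-1 site that allows any middle base, was found in 0 of 34 against 7.1%. CATG repeated after 6 bases, the core of the p53 family's binding element, was found in KRT3 alone (2.94%) against 0.32% of all genes. ATAAA is part of TATAAA, and in KRT85 the CCAAT 33 bases before the start overlaps the ATAAA 30 bases before it. A match describes letters and not binding. With 50 bases after the start included, the windows of KRT5 and KRT8 overlapped a region in both libraries and those of the other 32 keratins overlapped none in either. That is 5.88% of keratin windows in each library, against 63.3% of all genes in the lactate library and 58.3% in the untreated library. Of the 34 keratins with a window, 22 were hair keratins, and no stress keratin had one. The genes without one were KRT1, KRT13, KRT14, KRT15, KRT16, KRT17, KRT18, KRT19, KRT222, KRT23, KRT6A, KRT6B, KRT6C, KRT7, KRT72, KRT77, KRT78, KRT80, KRT81, KRT83 and KRT86. Among these, KRT13, KRT15, KRT16, KRT17, KRT18, KRT19, KRT23, KRT6A, KRT78, KRT80 and KRT86 had a region within 1 kb of an annotated end in both libraries. The 5.88% therefore does not stand for all keratins.

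Most accessible regions near keratins were listed in both libraries. Of the 101 regions, 74 were shared, 24 were in the lactate list alone and 3 in the untreated list alone. The lactate-only share was 23.8% (exact binomial interval 15.9 to 33.3), against a background of 25.2% for regions within 10 kb of any protein-coding gene. The untreated-only share was 2.97% (0.617 to 8.44), against 7.14%. Both intervals hold the background share, so no difference from regions near other genes was seen beyond counting error. The intervals are wide and do not show that the splits are alike. By class, the lactate list alone held 1 of 8 basal regions, 4 of 12 stress regions, 2 of 15 suprabasal regions, 1 of 16 simple regions, 11 of 35 hair regions and 5 of 15 regions of the other keratins. The interval of every class held 25.2%. Stress keratins stood at 33.3% (9.92 to 65.1) and simple keratins at 6.25% (0.158 to 30.2), and these intervals overlap. On chromosome 12, 16 of 58 regions were in the lactate list alone and 1 in the untreated list alone, and on chromosome 17 the numbers were 8 and 2 of 43.

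**Figure D1:**
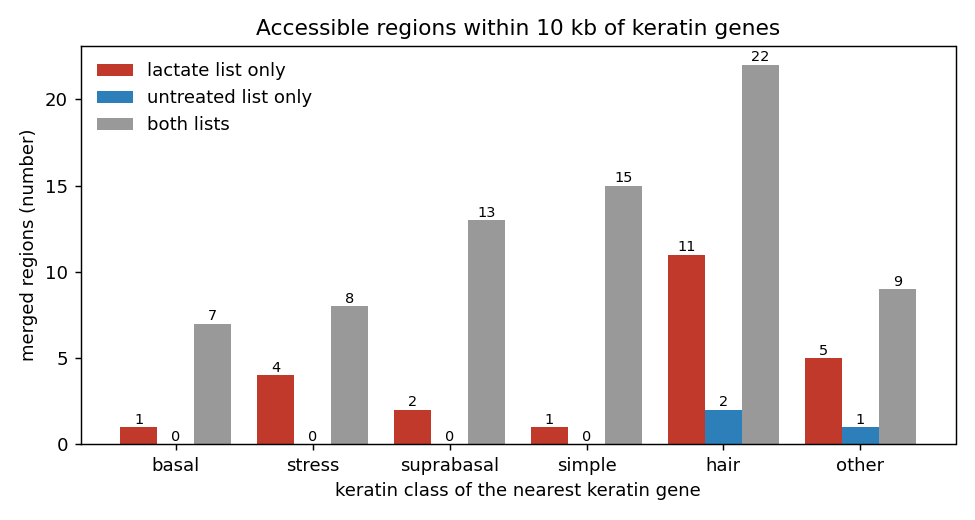
Number of merged accessible regions in or within 10 kb of keratin genes, by the class of the nearest keratin, in the lactate list only, the untreated list only or both lists. Shared regions are the largest group in every class, and hair keratins, with 26 genes, hold 11 of the 24 lactate-only regions and 2 of the 3 untreated-only regions.

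Regions were denser around basal, stress, simple and the other keratins than around hair and suprabasal keratins. With every region in the windows of a class counted, also those nearer to another class, there were 14.6 regions per 100 kb for basal, 11.8 for stress, 10.4 for simple, 9.57 for the other, 6.92 for hair and 6.91 for suprabasal keratins. The same measure gave 5.44 for all protein-coding genes. Long genes weigh more in this measure, and gene length was not adjusted for. By the nearest keratin alone, stress stood first at 11.8, basal at 10.6, simple at 9.28, the other keratins at 8.97, hair at 6.37 and suprabasal at 5.46, so the order of basal and stress keratins depended on the counting. At least 1 region lay in the window of 48 of the 55 keratins (87.3%), against 92.6% of all genes. The keratins with none were the stress keratin KRT6C and the hair keratins KRT25, KRT26, KRT27, KRT35, KRT38 and KRT40. The windows of KRT4, KRT74, KRT79 and KRT81 held only regions nearer to another keratin. Along the edge of the 10 kb window, the outermost region inside was a lactate-only one of 11 tags, 9158 bp from KRT71. The nearest outside were an untreated-only region of 20 tags at 10273 bp from KRT19 and a shared one at 10642 bp from KRT76, with 49 tags in the lactate and 19 in the untreated library. Of the 101 regions, 1 lay within 1 kb of another protein-coding gene, SMARCE1, beside KRT222.

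The height of a region was read as its summit tags, the authors' pileup, which is the number of extended tags over the highest point without scaling for depth. The summit ratio is the lactate summit tags over the untreated summit tags after each is divided by its library's total tags. Across the genome most shared regions had the higher summit per total tags under lactate, and more so where tags were many. A relative ratio therefore divides the summit ratio by the median ratio of all shared regions of like summit tags, taken in 20 bins, so that 1 means a region that differs as others of equal height do. The median summit ratio of the 74 shared keratin regions was 1.82, against 1.68 near all protein-coding genes, and 71 of the 74 (95.9%) had a ratio above 1, against 90.2%. Their median relative ratio was 1.02. A relative ratio above 1.5 was found at 14 of the 74 regions (18.9%, 10.7 to 29.7), against a background of 11.4%. A relative ratio below 1/1.5 was found at 5 (6.76%, 2.23 to 15.1), against 11.2%. Both backgrounds lie within these intervals. The median relative ratios by class were 0.852 for basal, 1.20 for stress, 1.0 for suprabasal, 0.909 for simple, 1.11 for hair and 0.986 for the other keratins. The 14 higher regions were 1 basal, 3 stress, 5 suprabasal and 5 hair regions, and none were simple or other. At 6 of the 74 shared regions the highest points of the libraries lay more than 200 bp apart, at most 759 bp, so that the ratio there sets different sites of 1 region side by side.

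**Figure D2:**
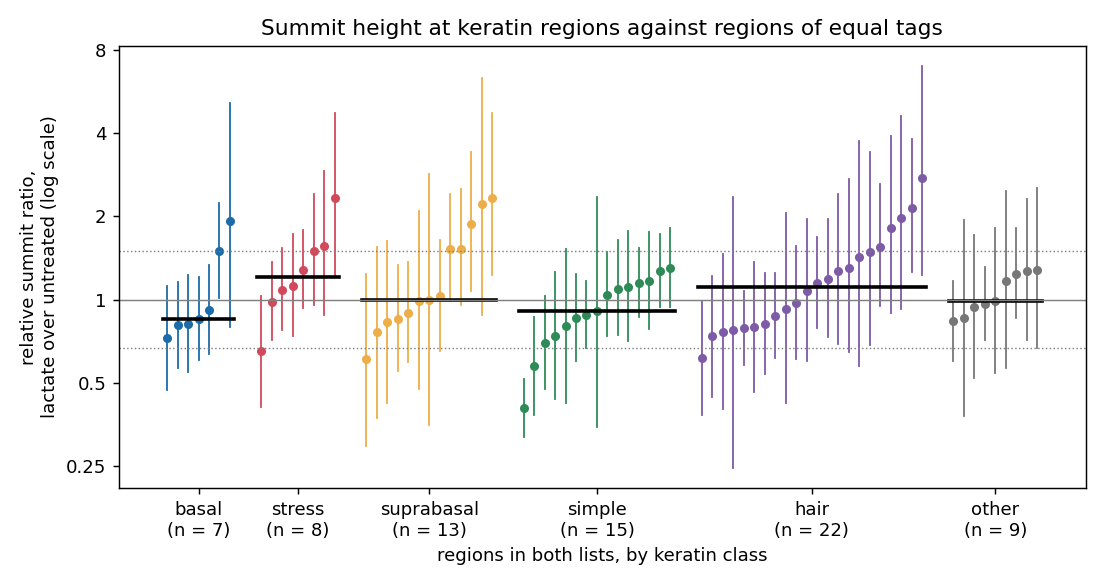
Relative summit ratio, lactate over untreated, of each of the 74 keratin regions in both lists, by class and in rising order within a class (log scale). Points are regions, thin lines are exact 95% intervals for counting error, thick lines are class medians, and dotted lines mark 1.5 and 1/1.5. Most intervals cross 1, the stress median is 1.20, and the lowest point is the region below KRT20 at 0.407.

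Basal keratins had tall regions at the ends of KRT5 and KRT15 in both libraries and none at KRT14. KRT5, the type II chain of basal cells, had 75 lactate and 52 untreated summit tags at the region over its promoter (chr12:52520147-52520838), a relative ratio of 0.920 (0.637 to 1.34). Upstream of it, KRT5 had 83 lactate and 61 untreated tags at 1012 bp from the start (0.852, 0.605 to 1.21) and 76 and 59 tags at 1608 bp (0.807, 0.567 to 1.15). All 3 were taller in the lactate library per total tags, and none of them differed from regions of equal height by more than counting error. A weaker KRT5 region, 7277 bp beyond the other end, had 18 lactate and 8 untreated tags (1.93, 0.798 to 5.13). KRT15, a type I chain of basal and stem cells, had 59 lactate and 47 untreated tags at 288 bp above its upper-coordinate end (0.816, 0.547 to 1.22) and 48 and 44 tags at 788 bp (0.727, 0.473 to 1.12). A narrow region of 13 tags, 2391 bp below KRT15, was in the lactate list alone. KRT14, the partner of KRT5, had its nearest region 2578 bp below its lower-coordinate end (chr17:41579497-41579919), with 89 lactate and 38 untreated tags. Its relative ratio of 1.49 (1.01 to 2.24) lay just under the 1.5 used here, and its interval stayed above 1. No region of either list lay in KRT14 or within 1 kb of its ends.

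Stress keratins had the highest class median relative ratio with the 10 kb windows, at 1.20, but not with windows of 50 kb, where it was 1.09 against 1.11 for hair and 1.14 for the other keratins. With the mean pileup over all summits it was equal to that of hair keratins, at 1.12. KRT6A, a type II keratin made in wounded and hyperproliferative epithelium, had 43 lactate and 13 untreated tags at the region over its upper-coordinate end (chr12:52493203-52493579). That is a summit ratio of 3.92 and a relative ratio of 2.33 (1.23 to 4.73). A second shared KRT6A region, 3375 bp from that end, had 40 lactate and 18 untreated tags (1.57, 0.879 to 2.91), and between them a region of 20 tags was in the lactate list alone. At the first of these the interval stayed above 1, and at the second it did not. KRT6B, a near copy of KRT6A, had a region of 16 tags over its upper-coordinate end in the lactate list alone (chr12:52452100-52452715, authors' fold enrichment 8.10). Its 2 shared regions lay on the other side of the gene, with 103 lactate and 64 untreated tags (0.983, 0.713 to 1.36) and 40 and 41 tags (0.650, 0.410 to 1.03). The lower-coordinate pair of KRT6B regions therefore did not share the high ratio of KRT6A. KRT6C, the third copy, had no region within 10 kb. KRT6A, KRT6B and KRT6C are close to identical in sequence, and the authors' headers point to uniquely mapped tags. Tags that match more than 1 copy would be missing from all 3, by an amount that was not tested. The same limit holds for stretches that KRT14, KRT16 and KRT17 share with each other and with their pseudogenes.

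KRT16 and KRT17, type I stress keratins that lie next to each other, had 6 regions, with relative ratios of 1.09 to 1.5 at the shared ones and the widest difference in tags around the summits. KRT16 had 64 lactate and 37 untreated tags at 293 bp above its upper-coordinate end (relative ratio 1.12, 0.739 to 1.73) and 99 and 57 tags at 2847 bp (1.09, 0.778 to 1.54). KRT17 had 124 lactate and 59 untreated tags at 277 bp above its upper-coordinate end (1.28, 0.934 to 1.78) and 67 and 29 tags at 1210 bp (1.5, 0.958 to 2.41). Below KRT17, at chr17:41617346-41617932 and chr17:41618384-41618745, regions of 51 and 72 tags were in the lactate list alone. These were the tallest lactate-only keratin regions, the others having 7 to 33 tags. Their fold enrichments over the local background were low, at 1.66 and 2.56, with 1517 and 1375 lactate tags in the 10 kb around them.

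**Figure D3:**
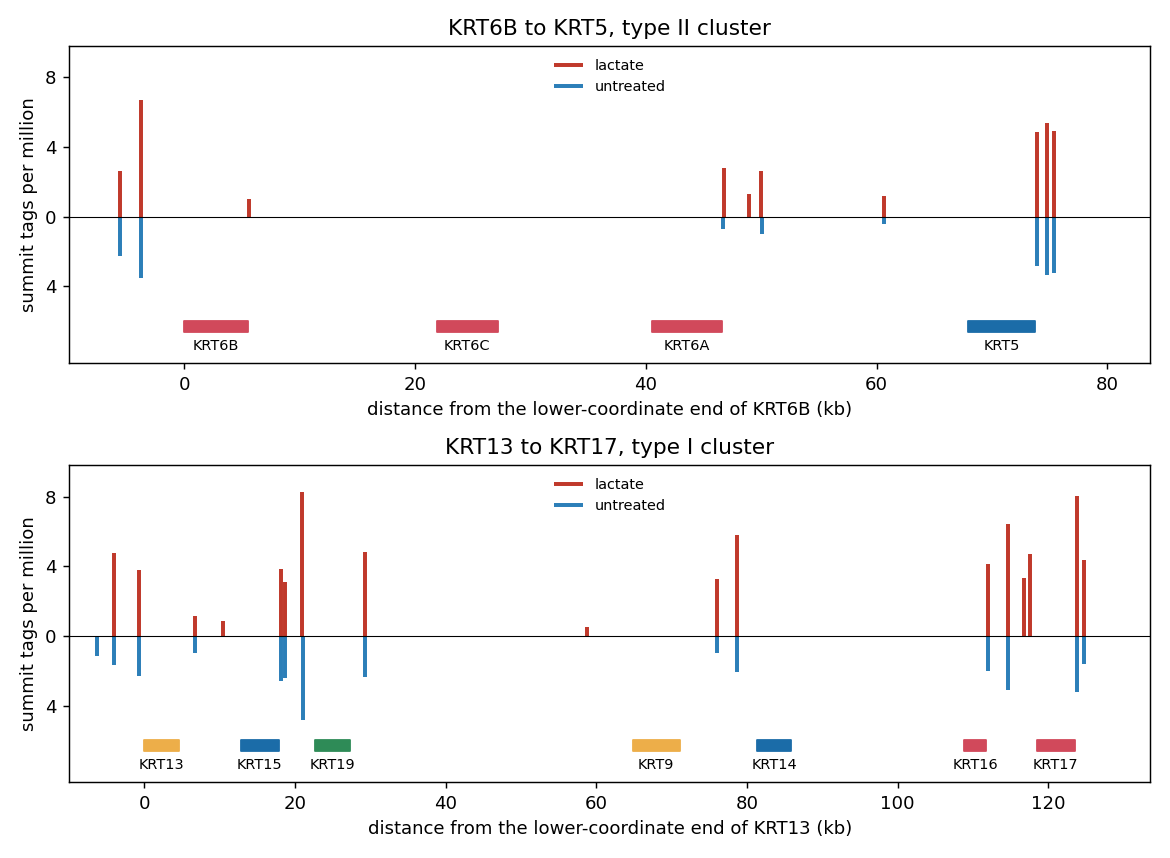
Summit tags per 1000000 total tags at each region from KRT6B to KRT5 and from KRT13 to KRT17, lactate upwards and untreated downwards, with gene bodies drawn to scale below and coloured by class, against distance from the lower-coordinate end of the first gene (kb). At the upper end of KRT6A the bars are 2.79 lactate and 0.712 untreated tags per 1000000, and no region lies by KRT6C. Lactate bars without an untreated one stand at KRT6B, KRT6A, KRT15, KRT9 and KRT17. On the lower-coordinate side of KRT13 stands an untreated bar without a lactate one.

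The tags around a summit were recovered as a further readout. The authors' fold enrichment is (pileup + 1) over (local background + 1), and wherever that background lay above the genome average it came out as a whole number of tags in the 10 kb around the summit, within 0.1 tag, in 100% of values. The local tag ratio is lactate over untreated, each per total tags, and its relative form divides by the median of shared regions with like numbers of these tags, again in 20 bins. Its median over the 69 shared keratin regions with values in both libraries was 1.33, against 1.17 near all protein-coding genes. By class the median local tag ratios were 1.39 for basal, 1.68 for stress, 1.29 for suprabasal, 1.40 for simple, 1.24 for hair and 1.26 for the other keratins. The median relative local tag ratio was 1.06 over all 69, and by class 0.988 for basal, 1.22 for stress, 1.16 for suprabasal, 0.956 for simple, 1.06 for hair and 1.14 for the other keratins. Stress keratins came first in both forms, while basal and simple keratins came last in the relative form. Windows of neighbouring summits overlap, as for the shared regions by KRT6A, KRT6B, KRT16 and KRT17 and for regions by KRT5, KRT15 and KRT19. The class medians thus do not rest on separate values. The highest keratin values were the KRT16 regions. Around the KRT16 summit at 293 bp there were 1146 lactate and 548 untreated tags, a local tag ratio of 2.48 and a relative one of 1.67 (1.5 to 1.85). Around the summit at 2847 bp there were 1477 lactate and 718 untreated tags, a local tag ratio of 2.44 and a relative one of 1.64 (1.5 to 1.79). These windows overlap and share tags. No untreated value exists for the lactate-only KRT17 summits beside them. The KRT17 summits on the far side of the gene had 772 lactate and 503 untreated tags (1.22, 1.09 to 1.37) and 691 and 456 tags (1.21, 1.07 to 1.36). A relative local tag ratio above 1.5 was found at 3 of the 69 regions (4.35%), against a background of 2.16%: both KRT16 regions and the region by KRT77, with 101 lactate and 75 untreated tags around it (1.54). At KRT77, 43 of the lactate and 13 of the untreated tags lay at the summit itself, so this value is not separate from its summit ratio. At both KRT16 regions the authors' fold enrichment was lower in the lactate library, at 2.72 against 3.18 and 3.27 against 3.78 in the untreated library, so the summits differed less than the tags around them. Higher values were not confined to KRT16 and KRT17. Between KRT9 and KRT14 the relative local tag ratios were 1.37 (1.14 to 1.66) and 1.29 (1.07 to 1.56). The shared KRT15 regions, farther away, had 0.988 and 0.993. The KRT16 and KRT17 interval was singled out after its values had been seen. More open DNA and more copies of the interval cannot be told apart from these tags.

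**Figure D4:**
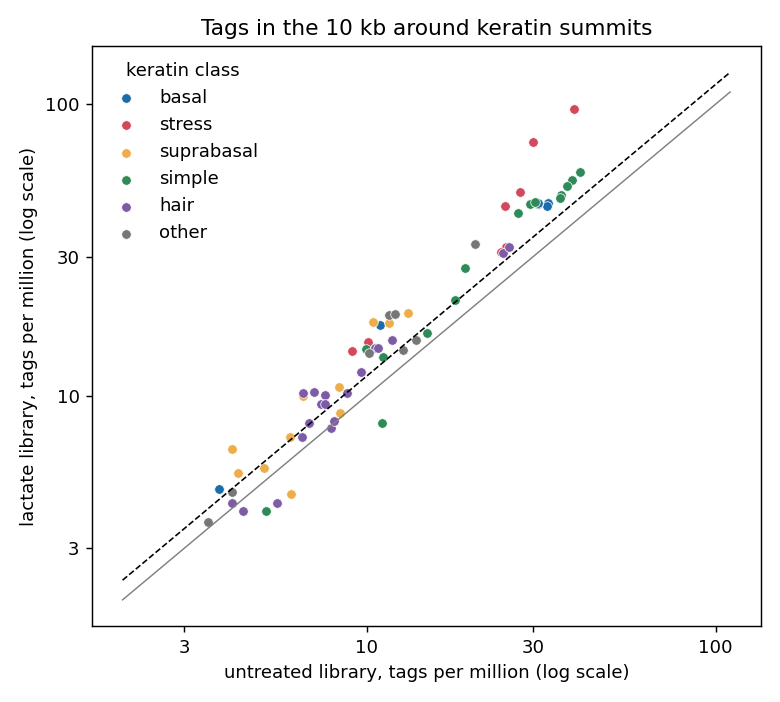
Tags per 1000000 total tags in the 10 kb around the summit, lactate library (y axis) against untreated library (x axis), both on log scales, for the 69 shared keratin regions with values in both. Colours are keratin classes, the solid line marks equal values and the dashed line the median ratio of 1.17 near all protein-coding genes. The 2 points farthest above the dashed line at the upper right are the KRT16 regions, and 1 simple keratin point far below the solid line is the KRT20 region.

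Suprabasal keratins held 5 regions with a relative ratio above 1.5 among their 13 shared ones. That is 38.5% (13.9 to 68.4), against a background of 11.4%, with 6 classes looked at. In the other direction 1 region, below KRT12, lay past 1/1.5. The interval treats the 13 regions as independent, though KRT10, KRT13 and KRT78 held more than 1 each, so it is not a test. The share rests on regions by KRT9, KRT10, KRT13, KRT77 and KRT78, of which KRT9 and KRT77 had an interval above 1. KRT77, a type II keratin of sweat gland ducts, had 43 lactate and 13 untreated tags at 1563 bp below its lower-coordinate end (2.33, 1.23 to 4.73). KRT9, the keratin of palm and sole epidermis, had 50 lactate and 18 untreated tags at 4904 bp above its upper-coordinate end (1.88, 1.08 to 3.41), a site that lies between KRT9 and KRT14. A KRT9 region of 8 tags on the other side was in the lactate list alone. KRT78 had 62 lactate and 27 untreated tags inside the gene (1.53, 0.960 to 2.50) and 21 and 19 tags at its lower-coordinate end (0.829, 0.424 to 1.63). KRT13, a keratin of internal mucosa such as that of the tongue, had 73 lactate and 31 untreated tags at 4035 bp below its lower-coordinate end (1.53, 0.993 to 2.41). At 724 bp below that end KRT13 had 58 lactate and 42 untreated tags (0.898, 0.593 to 1.37), and on the other side 18 and 18 tags (0.762, 0.374 to 1.55). The KRT13 regions thus lay on both sides of 1.

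KRT1 and KRT10, the pair of the skin's differentiated layers, differed in the height of their regions. KRT10, the type I chain of the KRT1 pair, had 17 lactate and 7 untreated tags at 4104 bp below its lower-coordinate end (2.23, 0.877 to 6.35) and 9 and 9 tags inside the gene (1.0, 0.352 to 2.84). The KRT1 region was taller, with 50 lactate and 39 untreated tags at 2222 bp below its lower-coordinate end (0.855, 0.551 to 1.33). KRT4, the partner of KRT13, had no region nearer to it than to KRT3. The single region in its window, between KRT3 and KRT4, had 51 lactate and 33 untreated tags (1.03, 0.652 to 1.65). KRT2, a late keratin of the epidermis, had 19 lactate and 15 untreated tags (0.985, 0.474 to 2.08). KRT12, the keratin of the cornea, had 16 lactate and 20 untreated tags (0.610, 0.295 to 1.24). KRT76, a keratin of the hard palate, had a region of 10 tags in the lactate list alone.

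By the nearest keratin, simple keratins held the tallest region of each library, by KRT8 in the lactate and by KRT20 in the untreated library. The region by KRT20 also lies in the window of KRT12, a suprabasal keratin. The median summit tags of their shared regions were 74 in the lactate and 54 in the untreated library, close to 75 and 47 for basal keratins and above 49 and 30.5 over all shared keratin regions. KRT8, the type II chain of simple epithelia, had 143 lactate and 76 untreated tags at the region over the start given by its promoter window, which lies inside the annotated gene (chr12:52926183-52927719; relative ratio 1.15, 0.864 to 1.54). Nearer its lower-coordinate end KRT8 had 121 lactate and 57 untreated tags (1.30, 0.939 to 1.81), 73 and 40 tags (1.16, 0.781 to 1.76) and 48 and 54 tags (0.578, 0.383 to 0.869). The last, at chr12:52907845-52908677, was the lowest of the 7 KRT8 regions, 3 of which had relative ratios below 1. Its highest points lay 290 bp apart in the libraries. KRT18, the partner of KRT8, had 90 lactate and 54 untreated tags in a region that covers its lower-coordinate end and the upper-coordinate end of KRT8, which overlaps it (1.04, 0.737 to 1.49). The highest points lay 759 bp apart in the libraries, so this ratio does not compare 1 site. A KRT18 region of 19 tags at 4209 bp above the gene was in the lactate list alone. KRT7 had 137 lactate and 66 untreated tags inside the gene (1.27, 0.938 to 1.73), while 59 and 54 tags below its lower-coordinate end gave 0.697 (0.473 to 1.03). The other KRT7 regions had 23 and 21 tags and 32 and 30 tags. KRT19, a type I keratin of ducts and of many squamous carcinomas, had 127 lactate and 88 untreated tags at 1662 bp below its lower-coordinate end (0.881, 0.666 to 1.17). This region lies between KRT19 and the basal keratin KRT15, and also in the window of KRT15. On the other side of KRT19 a region had 74 lactate and 43 untreated tags (1.10, 0.744 to 1.64).

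The region nearest to KRT20, the keratin of intestinal and urothelial surface cells, stood apart. This region, the only one in the KRT20 window, lies 4175 bp below the gene's lower-coordinate end (chr17:40871604-40871826). It is between KRT20 and the suprabasal keratin KRT12, and also in the window of KRT12. It had 119 lactate and 182 untreated tags, the most untreated tags of any keratin region. Its summit ratio of 0.775 was the lowest near keratins, and its relative ratio was 0.407 (0.320 to 0.515). The tags in the 10 kb around it were 124 in the lactate and 202 in the untreated library, so most of them lay under the summit. The region is narrow, 223 bp wide, and belongs to a kind of narrow single-summit region that made up 5 of the 101 keratin regions and 10.7% of those near all protein-coding genes. The other 4 were the lactate-only region by KRT15, a region in KRT222 with 14 tags in each library, a region by KRT39 with 32 lactate and 28 untreated tags, and a lactate-only region of 11 tags in KRT39. What the narrow regions are was not tested.

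Hair keratins held 35 regions with a median width of 344 bp, against 358 bp near all protein-coding genes. Their lactate-only regions had a median of 11 tags, the same as near all protein-coding genes. KRT84, a keratin of hair and tongue papillae, had the highest relative ratio near keratins, with 29 lactate and 8 untreated tags at 5052 bp below its lower-coordinate end (2.76, 1.23 to 6.99). A KRT84 region of 8 tags inside the gene was in the untreated list alone. KRT72, of the inner root sheath, had 61 lactate and 19 untreated tags at 2522 bp below its lower-coordinate end (2.14, 1.26 to 3.79) and 32 and 21 tags 4017 bp below it (1.08, 0.601 to 1.96). Relative ratios above 1.5 were also found at KRT33A, with 26 lactate and 10 untreated tags (1.98, 0.924 to 4.60), at KRT39, with 29 and 12 tags (1.81, 0.897 to 3.90), and at KRT82, with 56 and 24 tags (1.56, 0.949 to 2.62). In KRT84 and KRT72 the interval stayed above 1, and in KRT33A, KRT39 and KRT82 it did not. KRT86, a hair shaft keratin whose gene spans several regions, had 102 lactate and 79 untreated tags (0.788, 0.582 to 1.07) and 37 and 40 tags (0.617, 0.384 to 0.989). The lactate-only hair regions had 8 to 18 tags: 3 by KRT71 with 11, 12 and 11, 2 by KRT82 with 12 and 9, and 1 each at KRT31, KRT39, KRT73, KRT75, KRT85 and KRT86 with 10, 11, 8, 9, 14 and 18. An untreated-only region of 21 tags lay 4801 bp above KRT36, between it and KRT13. The shared regions nearest KRT28, KRT31, KRT32, KRT33B, KRT34, KRT37, KRT75 and KRT83 had relative ratios between 0.766 and 1.49. The further shared regions had 0.778 and 1.19 by KRT33A and 0.736 by KRT86.

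Among the other keratins, KRT80, a type II keratin made in many epithelia, had the most regions. KRT80 had 117 lactate and 74 untreated tags just above its upper-coordinate end (0.965, 0.716 to 1.31) and 89 and 45 tags at 4894 bp below the other end (1.24, 0.856 to 1.82). Its 3 other shared regions had relative ratios of 0.942, 0.986 and 1.27. A further 3 KRT80 regions of 33, 21 and 32 tags were in the lactate list alone. KRT23 had 88 lactate and 66 untreated tags at 7277 bp below its lower-coordinate end (0.835, 0.600 to 1.17) and 28 and 16 tags 185 bp below it (1.28, 0.668 to 2.53). A KRT23 region of 23 tags was in the untreated list alone and 1 of 7 tags in the lactate list alone. KRT24 had a single region of 8 tags, in the lactate list alone, and KRT222 had 21 lactate and 14 untreated tags beside its narrow region (1.17, 0.566 to 2.48).

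At the gene ends themselves keratins differed little between the libraries. A region within 1 kb of an annotated end was listed in both libraries for 15 of the 55 keratins. It was in the lactate library alone for KRT6B and KRT75 (3.64%), against a background of 6.09% of all protein-coding genes. It was in the untreated library alone for 0 keratins, against 0.836%. Neither library had one for 38 keratins (69.1%), against 31.3% of all genes. Hair keratins made up most of these, with 23 of 26 genes, followed by suprabasal keratins with 8 of 11. By contrast 2 of 3 basal, 4 of 5 stress and 3 of 5 simple keratins had one in at least 1 library. The table of gene ends gives no strand for the keratins without a promoter window, so at these a gene end may be either the start or the finish of the gene.

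**Figure D5:**
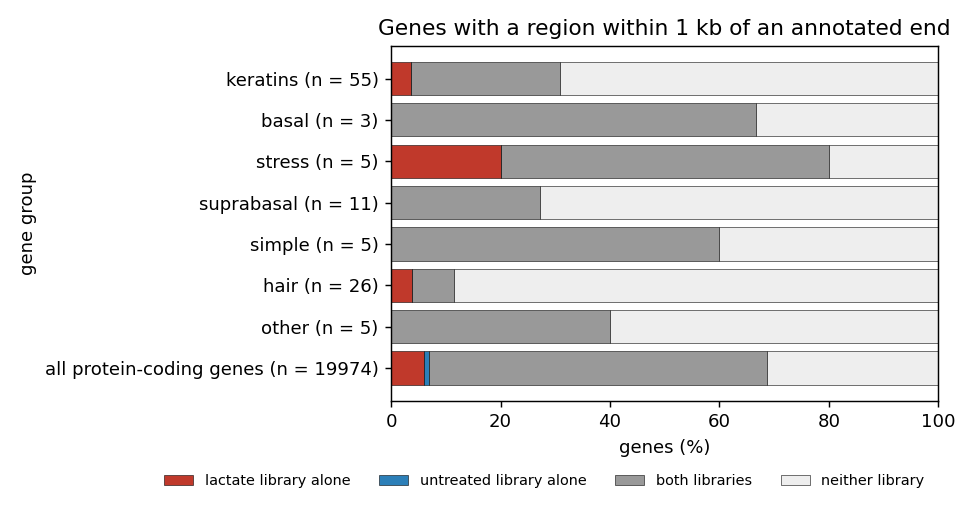
Percent of genes with a region within 1 kb of an annotated end in both libraries, in 1 of them alone or in neither, for keratins, each keratin class and all protein-coding genes. Neither library has such a region for 69.1% of keratins and 31.3% of all genes, and no keratin has one in the untreated library alone.

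Genes that work with keratins had accessible ends more often than the keratins. The 12 genes listed encode proteins that work with keratin filaments, mostly at plaques and linkers. All of them except TCHH, trichohyalin of the hair follicle, had an accessible gene end in both libraries, against 61.8% of all protein-coding genes. Within 10 kb of them 30 of 115 regions were in the lactate list alone (26.1%, against 25.2%) and 8 in the untreated list alone (6.96%, against 7.14%), close to the background. Of their 77 shared regions 11.7% had a relative ratio above 1.5 and 7.79% one below 1/1.5, against 11.4% and 11.2%. JUP, plakoglobin of desmosomes, had 203 lactate and 85 untreated tags at its tallest gene-end region (1.48, 1.15 to 1.94). PKP2, plakophilin 2, had 120 lactate and 45 untreated tags (1.63, 1.15 to 2.35). DSP, desmoplakin, had 60 lactate and 35 untreated tags (1.11, 0.723 to 1.74). On the other side of 1 were PKP1, plakophilin 1, with 35 lactate and 33 untreated tags (0.716, 0.432 to 1.19), and PLEC, plectin, with 48 and 43 tags (0.744, 0.483 to 1.15). Of 15 other intermediate filament genes, 8 had an accessible end in both libraries and 6 in neither. The neurofilament gene NEFL had one in the untreated library alone, of 9 tags. Of 94 KRTAP genes, which encode the matrix proteins around hair keratins, 17 had one in both, 6 only in the lactate list, 2 only in the untreated list and 69 in neither list. Among cell type markers, an accessible end in both libraries was found for 4 of 5 squamous, 3 of 4 melanocyte, 3 of 5 fibroblast, 2 of 4 leukocyte and 0 of 3 endothelial genes. Gene-end regions thus did not single out the squamous genes of this line, and an accessible end alone does not show that a gene is used.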

How the data were processed

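The analysis began from the deposited peak lists of 1 lactate and 1 untreated ATAC-seq library, grouped by the treatment labels. The genome build hg38 and the tools BWA 0.7.12, fastp 0.20.0 and MACS2 2.1.0 stand in the submitters' processing notes, while the file headers give MACS 2.2.7.1. Peaks were called by the authors, per the file headers, for each library by itself with no control, at a q-value of 0.05, with a shift of 100 bp upstream and an extension of 200 bp, from files named for unique and deduplicated alignments. The deposited pileup is a signal, the number of extended tags over a summit, without scaling. The deposited fold enrichment is a ratio of pileup to local background with 1 added to each.

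Overlaps of at least 1 bp were merged on chromosomes 1 to 22 and X, with numbers equal to those of bedtools 2.31.1. Summit ratios, relative ratios in 20 bins of summit tags, and local 10 kb tags were computed with Python 3.11.15, pandas 2.3.3, numpy 2.4.6 and scipy 1.17.1, and the steps were tested on simulated data. A relative ratio was counted past 1.5-fold. Of 144960 lactate summits 23.1%, and of 123900 untreated summits 14.3%, sat at the genome average, where local tags are not known. Gene coordinates and promoter windows are RefSeq's, on GRCh38.p14. Strand was used only for the 34 keratins matched to a promoter window. No genome sequence was used here, so region sequences are not shown. With 1 library per group no test was made.

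The keratin members, classes and gene lists were chosen with earlier results of these data known. The text names the basal, stress, KRT1, KRT10, KRT4, KRT13, KRT7, KRT8, KRT18, KRT19 and KRT80 genes, keratins with a region of 1 library in their window, the 10 tallest regions and the 5 highest and 5 lowest relative ratios. The other keratins are given by name or number. The local tags, the density by nearest keratin, the ATAAA search, the regions clear of other genes and the bins from regions near coding genes were added after the data had been seen. Alternatives were a stricter threshold, lists of equal length, windows of 1 kb and 50 kb, no narrow regions, another overlap, scaling, bin number or summit measure, and a 2 kb gene-end window. The CUT&Tag and RNA-seq data that the design mentions were not analysed here.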

Additional observations from a re-analysis of the deposited data

How the results depend on the processing

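No paired analysis was possible because there is 1 library per group. The order of the single-library counts depended on list length. With both lists at the 98152 regions strongest in fold enrichment, keratins had 7 lactate-only and 16 untreated-only of 84 regions, against 24 and 3 as deposited. These are 8.33% (3.42 to 16.4) and 19.0% (11.3 to 29.1), beside 15.1% and 16.2% near all protein-coding genes. By class the lactate-only numbers were then 0 basal, 1 stress, 1 suprabasal, 0 simple, 5 hair and 0 other, with 1 keratin gene end in the lactate library alone and a median relative ratio of 1.41 for stress keratins. Within 1 kb 13 regions were lactate-only and 1 was untreated-only, with 0 basal, 2 stress, 1 suprabasal, 0 simple and 6 hair regions in the lactate list alone. The median summit ratio there was 1.71, the median relative ratio 0.965 over all, 1.04 for simple and 0.872 for hair keratins, and the median relative local tag ratio 1.0 over all and 1.30 for stress keratins. Within 50 kb there were 5 untreated-only regions, 4 suprabasal and 3 simple lactate-only regions, and a median relative local tag ratio of 1.04 for stress keratins. With regions kept at a −log10 p, recomputed from pileup and fold, of 7 or more, simple keratins had a median relative ratio of 1.05, hair keratins 0.995, and the other keratins 2 lactate-only regions. Without narrow regions, judged in each list, there were 5 untreated-only regions and 0 basal lactate-only regions. The median summit ratio was 1.10 with the genome median set to 1 and 1.72 with the mean over summits. The other 128 values stayed within 1.5 times or within counting error. The causes of these shifts were not tested. Regions of few tags limit the comparison, since 29 lactate against 8 untreated tags gave an interval of 1.23 to 6.99.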

Other observations

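Keratin pseudogenes are copies of keratin genes that make no keratin protein, and tags that match both a copy and its gene would be missing at each. A region lay in the body of 6 of 52 KRT8 pseudogenes in the lactate list and 3 in the untreated list, and of 4 and 1 of 67 KRT18 pseudogenes. None of the 14 KRT16 and KRT17 pseudogenes and none of the 5 KRT19 pseudogenes had one in either list. The share over all pseudogenes was not computed, and the lactate list was longer, with 122399 regions against 98152. These numbers therefore do not show a difference under lactate. Within the type II cluster, KRT89P had 10 lactate and 11 untreated tags, KRT90P 14 and 9 at the region counted above with KRT75, and KRT126P 8 and 8 at one region and 23 and 13 at the next.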
